A study of Arabidopsis thaliana with 6 samples.

Results

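Shared peaks next to genes are binding regions of the floral transcription factor SEP3 whose summit lay just outside a gene. They were called in a line with the wild-type protein (SEP3wt) and again in a line with SEP3tet, a form deficient in tetramerization. They were chosen from the authors' SEP3wt peak list as peaks up to 1000 bp wide that shared at least 1 bp with a SEP3tet peak and whose SEP3wt summit lay outside every protein-coding gene but at most 1000 bp from the nearest edge of one. The rule gave 737 of the 2225 SEP3wt peaks (33.1%, exact 95% interval 31.2 to 35.1), or 43.0% of the 1715 shared SEP3wt peaks up to 1000 bp wide. They were read together with the 732 SEP3tet peaks that overlapped them, out of 3601 SEP3tet peaks. Over the whole SEP3wt list 84.7% of peaks were shared, and of the 810 narrow SEP3wt peaks within 1 kb of a gene 737 (91.0%) were. Sharing is part of the rule, so both shares are given as a description.

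The peaks came from ChIP-seq, in which chromatin bound by a protein is precipitated with an antibody and sequenced, on about 1 g of inflorescence per sample from Arabidopsis thaliana grown at 22 °C in 16 h of light and 8 h of dark. Both lines carried the sep1,2,3 mutant background and a transgene under the SEP3 promoter, labelled pSEP3:SEP3wt;sep1,2,3 in one line and pSEP3:SEP3tet;sep1,2,3 in the other, so that SEP1 and SEP2 were mutant in both. SEP3 was precipitated with an antibody against the native protein in 2 samples of either line, and pre-immune serum served for 1 mock sample of either line. Whether a line was 1 transformant, the age of the plants and the number of plants per sample are not given in the sources used here. The values analysed were 1 peak list per line, so the spread between replicates is unknown, no difference could be tested over samples, and sequencing depth is unknown.

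SEP3 belongs to the MADS-domain proteins, which bind DNA as dimers at CArG boxes, and is the partner that joins AP1, AP3, PI and AG into tetramers of floral organ identity. A tetramer can hold a pair of sites at once by looping the DNA between them, and the SEP3tet protein was made to lose that step. Regions just outside a gene commonly hold the promoter or the 3′ regulatory region. The gene table used here gives no strand, so the side of the gene on which a summit lay is not stated.

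The shared peaks next to genes spanned the whole range of strengths in both lists, from barely called to among the highest folds. Strength is given as the authors' fold, the enrichment of ChIP over background at the summit. In the SEP3wt list it ran from 2.09 to 10.1 with a median of 3.59 (interval of the median 3.48 to 3.65), beside a median of 3.38 over all SEP3wt peaks. In the SEP3tet list the overlapping peaks ran from 2.23 to 11.9 with a median of 4.66 (4.47 to 4.86), beside 3.65 over all SEP3tet peaks. These intervals, like those of shares, are exact, cover counting error over peaks and say nothing about plants. The folds of the lists rest on separate libraries of unknown depth, so a higher number in one list is not a difference in binding.

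Next to genes the shared peaks had median folds above those inside genes and close to those of shared peaks farther out. The 626 shared narrow peaks inside gene bodies had a median fold of 3.27 in the SEP3wt list and 4.01 in the SEP3tet list. The 352 shared narrow peaks over 1 kb from genes had medians of 3.70 (interval 3.48 to 3.81) and 4.81 (4.57 to 5.00). These intervals overlap those of the peaks next to genes. A −log10 q of at least 10 in both lists was reached by 213 of the 737 peaks next to genes (28.9%), beside 25.5% of all shared narrow peaks, 17.9% of those in gene bodies and 32.1% of those over 1 kb away. The 73 SEP3wt-only narrow peaks within 1 kb of genes had a median SEP3wt fold of 2.89, and the 718 SEP3tet-only ones a median SEP3tet fold of 3.27. Since the peaks were selected from these lists, the contrasts carry no test.

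**Figure D1:**
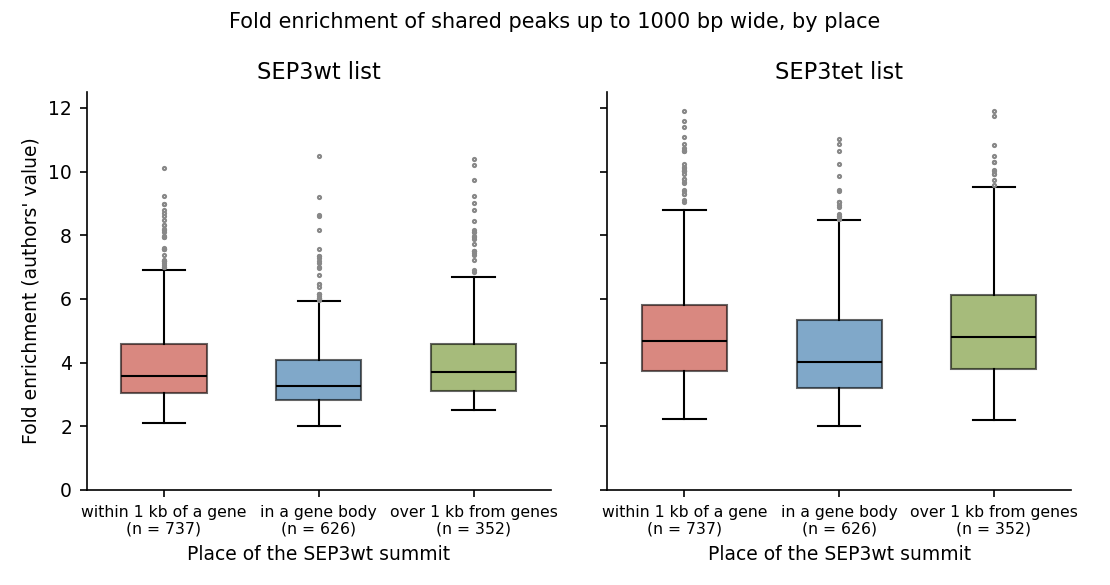
Authors' fold enrichment of shared peaks up to 1000 bp wide in the SEP3wt list (left) and of the SEP3tet peaks that overlapped them (right), by place of the SEP3wt summit. Boxes give the quartiles with the median as a line, whiskers reach the last peak within 1.5 times the box, and points are peaks beyond; the medians next to genes are 3.59 and 4.66, beside 3.27 and 4.01 in gene bodies.

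Peaks with a high fold in one list mostly had a high fold in the other. Of the 184 peaks next to genes with the highest SEP3wt folds, 123 (66.8%) were also among the 184 of the same 737 peaks with the highest SEP3tet folds. Across the 737 peaks the folds of both lists had a Spearman rho of 0.64 and a Pearson r of 0.75. Each point is a region, and both values of a region share its mappability and its chromatin, so the coefficient is only a description. Folds also went with width, with a rho of 0.73 in the SEP3wt list and 0.67 in the SEP3tet list.

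**Figure D2:**
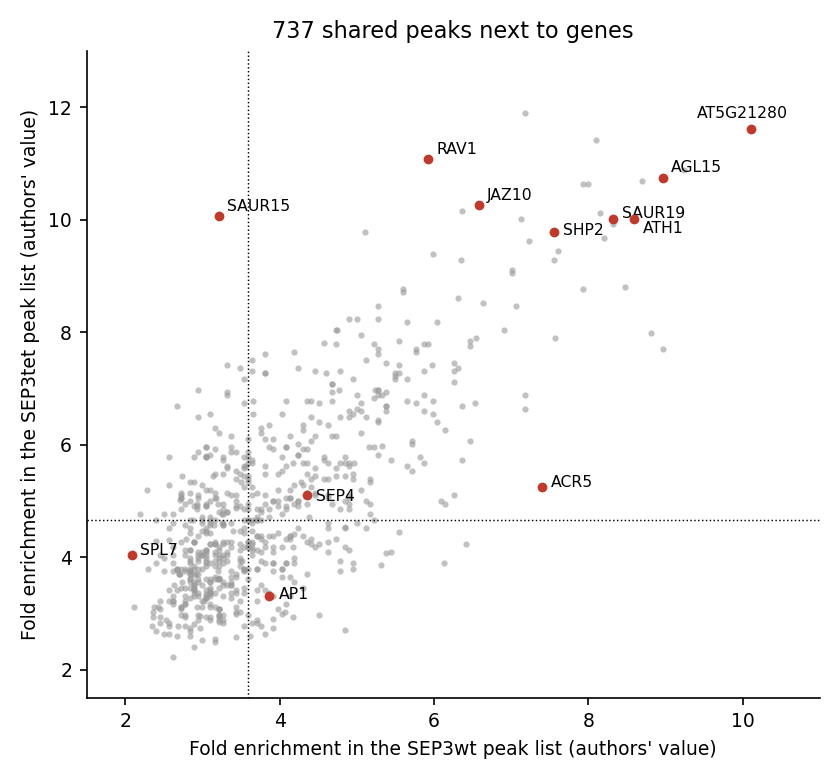
Authors' fold enrichment of the 737 shared peaks next to genes in the SEP3wt list (horizontal axis) and the SEP3tet list (vertical axis); dotted lines are the medians of these peaks, and red points carry the name of the nearest gene. AGL15, ATH1, SAUR19 and SHP2 lie high on both axes, while SAUR15 (3.21 and 10.1) takes its SEP3tet fold from a summit 751 bp away, next to a further SEP3wt peak with a fold of 8.81 that is not plotted.

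The highest SEP3wt fold, 10.1, belonged to the peak 67 bp from AT5G21280 (chromosome 5, 7265649 to 7266391, on TAIR10), which had a SEP3tet fold of 11.6. The next was the peak 228 bp from AT3G49790 (chromosome 3, 18469948 to 18470482), with folds of 9.24 and 10.9. In the SEP3tet list the highest fold, 11.9, was that of the peak 621 bp from AT4G14900 (chromosome 4, 8524610 to 8525120), whose SEP3wt fold was 7.18.

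AGL15, a MADS-box gene that acts in embryos and in the repression of flowering, had the highest SEP3wt fold of the peaks whose nearest gene has a symbol. Its summit lay 116 bp from the gene and 659 bp from PPH on the other side (AT5G13790; chromosome 5, 4450681 to 4451315), with folds of 8.97 in SEP3wt and 10.7 in SEP3tet. CPL3 (AT4G01060), a single-repeat MYB gene of epidermal patterning also named ETC3, had folds of 8.70 and 10.7 at a summit 713 bp away (chromosome 4, 459423 to 459957). ATH1, a BELL-type homeobox gene of the shoot meristem, had folds of 8.59 and 10.01 at a summit 74 bp away (AT4G32980; chromosome 4, 15917967 to 15918511). Both summits of each of these 3 peaks lay at most 33 bp apart.

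SAUR19, an auxin-responsive gene of cell expansion, had folds of 8.32 and 10.01 (AT5G18010; chromosome 5, 5962058 to 5962546). The summit lay 476 bp from SAUR19 and 655 bp from VDD on the other side, a gene of ovule development, so the peak belongs to either neighbour by distance alone. CIPK12, a kinase gene of calcium signalling, had folds of 8.32 and 9.91 with both summits at the same base. A further kinase gene of this family, CIPK5, lay 561 bp from the peak assigned to AT5G10920 (chromosome 5, 3444227 to 3444796), with folds of 8.97 and 7.70.

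CXE12, a carboxylesterase gene, had folds of 8.48 and 8.81, with the neighbour CXE13 at 280 bp on the other side. UGT73B2, a glucosyltransferase gene, had folds of 8.16 and 10.1 at 34 bp, with UGT73B3 at 298 bp. TFIIB, a general transcription factor gene, had folds of 8.21 and 9.67. PIP1B, an aquaporin gene, had folds of 7.99 and 10.6, and APT5, an adenine phosphoribosyltransferase gene, had folds of 7.94 and 10.6. SHP2 and ACR5 were the last of the 12 peaks with the highest SEP3wt fold whose nearest gene has a symbol. At ACR5 the SEP3wt fold was 7.39 and the SEP3tet fold 5.24, which placed the peak 21st of 737 in one list and 260th in the other.

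Ranking by the SEP3tet list brought in a few further genes. RAV1, which encodes an AP2-related DNA-binding protein, had a SEP3tet fold of 11.1 and a SEP3wt fold of 5.93 at 159 bp from the gene (AT1G13260; chromosome 1, 4541816 to 4542208). JAZ10, a repressor of jasmonate signalling, had folds of 10.3 in SEP3tet and 6.58 in SEP3wt. SHOT1 had 10.2 and 6.36, and GRP2B, a cold shock domain gene, had 10.01 and 7.12, in the same order. At SAUR15 the SEP3wt peak of 281 bp had a fold of 3.21, and the SEP3tet peak of 1227 bp that overlapped it had a fold of 10.1 at a summit 751 bp away. The same SEP3tet peak overlapped a further SEP3wt peak, over 1 kb from genes (chromosome 4, 18127795 to 18128659), with a SEP3wt fold of 8.81 and a summit 24 bp from that of SEP3tet. The SEP3tet fold given for SAUR15 is thus that of the neighbouring summit.

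Few peaks changed places from one end of the ranking to the other. Of the 184 peaks with the lowest SEP3wt folds, 5 were among the 184 with the highest SEP3tet folds, and these were chosen after their values were seen. They lay next to AT1G22180, OFP16, AT4G04630, PAP2 and AT3G05810, with SEP3wt folds of 2.67 to 3.04 and SEP3tet folds of 5.87 to 6.98. In the opposite corner were 2 peaks, at CAM9, a calmodulin-like gene, with folds of 4.84 in SEP3wt and 2.71 in SEP3tet, and at PAS1, with 4.79 and 3.75. At the weak end of the SEP3wt list were the peaks at SPL7, a copper response regulator (fold 2.09), OLI2 (2.11), AT5G45310 (2.196) and AT5G05140 (2.29), whose SEP3tet folds were 4.04, 3.12, 4.76 and 5.19.

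Of the 14 floral organ identity genes, 5 were the nearest gene of a shared peak next to genes: AP1, SEP3, SEP4, SHP1 and SHP2. Over all 27444 protein-coding genes the share was 2.61% (715 genes). SHP2, a gene of fruit valve margin and ovule identity, held the strongest of them, with folds of 7.56 in SEP3wt and 9.77 in SEP3tet and summits 1 bp apart, 258 bp from the gene (AT2G42830; chromosome 2, 17819680 to 17820107). SEP4, whose product acts with SEP3, had folds of 4.35 and 5.10 at 461 bp, with summits 177 bp apart (AT2G03710; chromosome 2, 1128479 to 1128914). AP1, a gene of floral meristem and sepal and petal identity, had folds of 3.87 and 3.31 at 400 bp (AT1G69120; chromosome 1, 25986485 to 25987002).

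SHP1, the close relative of SHP2, had a weak peak next to the gene, with folds of 2.83 and 3.89 at 783 bp and summits 3 bp apart (AT3G58780; chromosome 3, 21737338 to 21737471). SEP3 itself entered the set only just. Its SEP3wt peak of 900 bp (AT1G24260; chromosome 1, 8595415 to 8596314; fold 2.70) had its summit 1 bp outside the gene. The overlapping SEP3tet peak of 2810 bp (fold 5.01) had its summit 1595 bp away. That SEP3tet peak also overlapped a SEP3wt peak over 1 kb from genes (chromosome 1, 8596524 to 8597845; fold 2.29), with summits 490 bp apart. The SEP3tet fold given for SEP3 is thus that of a distant summit. The transgene holds SEP3 sequence as well, and its reads cannot be told apart from those of the native gene here. Without SEP3 the share of the list would be 4 of 14. The other organ identity genes, CAL, FUL, AP2, AP3, PI, AG, SEP1, SEP2 and STK, were not the nearest gene of any such peak. With summits at most 100 bp apart 3 of the 14 genes were left, and with a −log10 q of at least 10 in both lists 2.

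Flowering time genes were the nearest gene of such peaks in 3 of 25 cases. Beside AGL15 these were TOE1 (RAP2.7 in the gene table), an AP2-like floral repressor, with folds of 4.60 in SEP3wt and 7.26 in SEP3tet only 27 bp from the gene (AT2G28550; chromosome 2, 12228511 to 12228782), and TEM1, a repressor of the florigen gene FT, with folds of 3.56 and 5.63 at 598 bp. A 4th, SNZ, another AP2-like floral repressor, lay 439 bp from a strong peak whose nearest gene was AT2G39260 at 309 bp (chromosome 2, 16391372 to 16392251; folds of 8.81 and 7.99). That peak stood 5th of 737 by SEP3wt fold.

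Organ growth, boundary and polarity genes were the nearest gene in 5 of 30 cases. JAG, which promotes the growth of petals and other organs, had 2 such peaks in different gaps around the gene, at 229 and 686 bp, with SEP3wt folds of 3.16 and 3.15 and SEP3tet folds of 4.66 and 4.57 (AT1G68480; chromosome 1, 25684026 to 25684190 and 25686827 to 25687070). TCP3, a class II TCP gene that limits organ growth, had folds of 5.66 and 6.78 at 582 bp (chromosome 1, 19848471 to 19849428). GRF2, a growth-regulating factor gene, had folds of 4.57 and 7.81 at 151 bp (chromosome 4, 17727819 to 17728247). PHB, a gene of adaxial polarity, had 2.91 and 3.70, and RBE, a petal and organ boundary gene, had 2.51 and 4.76 at 991 bp, close to the limit of the rule. The summits of both lists at RBE lay 224 bp apart. A reciprocal overlap of 0.5 left 3 of these 30 genes, and a −log10 q of at least 10 in both lists left 2.

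The remaining lists held few of these genes. Of 20 floral meristem, carpel and fruit genes 1 was nearest to such a peak, SUP, which bounds the stamen whorl, with folds of 3.18 in SEP3wt and 5.05 in SEP3tet at 887 bp. Of 14 stamen and pollen genes 1 was, MYB21, a gene of stamen filament growth, with folds of 5.17 and 4.76 at 837 bp (chromosome 3, 10311164 to 10311445). EMS1 of the same list, an anther receptor kinase gene, lay 615 bp from a peak nearest to XBAT33 with folds of 5.28 and 8.47. Of 37 hormone pathway genes 2 were, the cytokinin response regulator ARR7 (3.76 and 4.81 at 93 bp) and the auxin response factor ARF6 (2.45 and 4.04 at 180 bp). Both summits at ARF6 lay 116 bp apart.

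Of the comparison lists, root regulators had 2 of 16 genes, SCR (3.65 and 5.25) and AGL21 (3.05 and 3.35), and housekeeping and photosynthesis genes had 0 of 20. The 6 floral, flowering and hormone lists together had 17 of 140 genes (12.1%), about the share of the root regulators alone. By list the shares ran from 5.00% (floral meristem, carpel and fruit) to 35.7% (floral organ identity). Both comparison lists together had 2 of 36 (5.56%), and all genes 2.61%. All lists were chosen with earlier results of these data known, so their shares are not evidence that such genes are preferred. Counting every gene with an edge within 1 kb of a summit, 3.48% of all genes (954) and 20 of the 140 listed genes were next to such a peak.

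**Figure D3:**
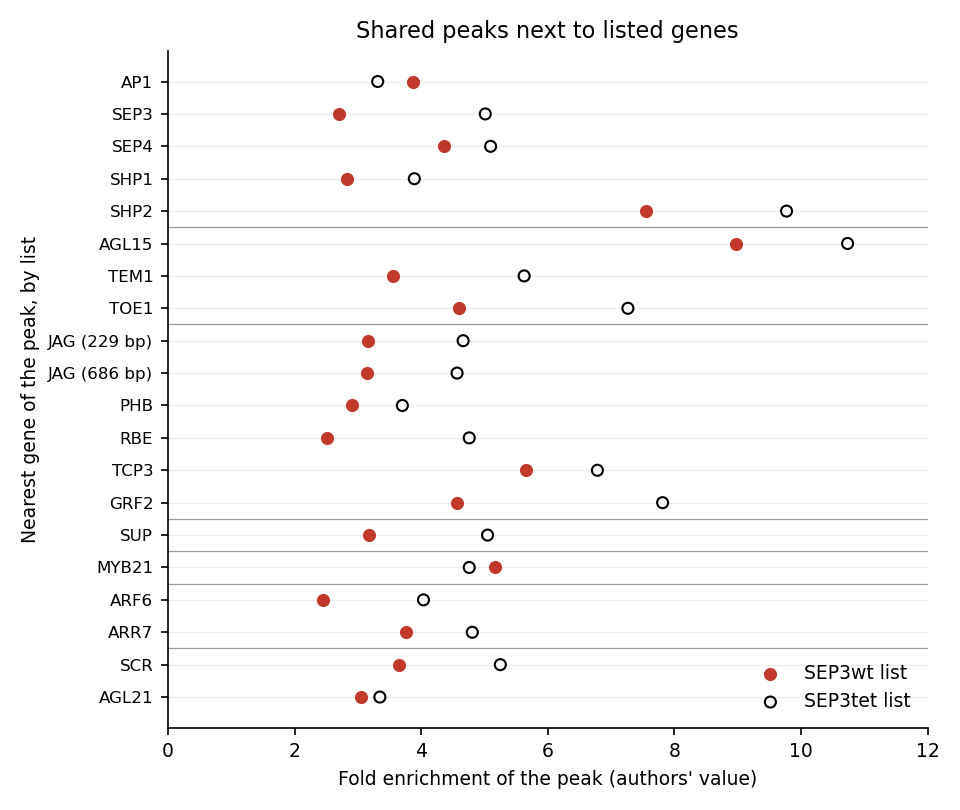
Authors' fold enrichment of the shared peaks whose nearest gene is on one of the lists, in the SEP3wt list (filled) and the SEP3tet list (open); grey lines part the lists, from floral organ identity at the top to root regulators at the bottom, and JAG appears once for each of its peaks with the distance to the gene. AGL15 and SHP2 stand apart at 8.97 and 7.56 in the SEP3wt list, while all other genes shown lie at 5.66 or below there. Listed genes that are not the nearest gene of their peak, such as SNZ (8.81), are not shown. The SEP3tet fold of SEP3 is that of a summit 1595 bp away.

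Families were also counted by gene symbol, beside the 2.61% of all genes. Genes whose symbol in the gene table lacks the family name are left out, so the numbers of genes may fall short of whole families. Of the families given here with any such gene, all but the homeobox genes had a share above that of all genes, on counts of 1 to 12. That follows in part from leaving out families without such a gene, which were the expansin, ribosomal protein, bHLH and IAA symbols. In a small family 1 such gene is enough to pass 2.61%, as for SPL and ERF genes. The statement is therefore no sign that families in general are preferred. TCP genes had 4 of 16 members, with TCP3 joined by the class I genes TCP20 (folds of 4.03 in SEP3wt and 5.53 in SEP3tet), TCP14 (3.54 and 5.24) and TCP11 (3.10 and 4.57). SAUR genes had 4 of 16, with SAUR19 and SAUR15 joined by SAUR27, 9 bp from a summit with folds of 5.44 and 4.08, and SAUR29 (3.43 and 3.12). SAUR27 and SAUR29 lie in 1 cluster of SAUR genes, and some SAUR genes are near-identical copies whose reads may be split. These shares carry no test.

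MYB genes had 7 of 115, from MYB17, MYB4 and MYB86 at a SEP3wt fold of 2.83 to MYB21. MYB17 is also known as LATE MERISTEM IDENTITY2, and its partner in name LATE MERISTEM IDENTITY1, here HB51, was the 1 of 50 homeobox genes of the HB, ATHB and HDG symbols with such a peak. HB51 had folds of 3.66 in SEP3wt and 6.54 in SEP3tet 105 bp from the gene (AT5G03790; chromosome 5, 1004513 to 1004838). MYB17 had folds of 2.83 and 3.27 at 480 bp (AT3G61250; chromosome 3, 22670164 to 22670371). Both encode regulators that act with LFY in the start of the flower.

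GRF symbols covered 21 genes, a name shared by growth-regulating factors and 14-3-3 proteins, and the 2 with a peak were growth-regulating factors, GRF2 and GRF4 (3.59 and 5.67). ARF genes had 2 of 22, ARF6 and ARF2, with SEP3wt folds of 2.45 and 2.37. WRKY genes had 4 of 67, NAC genes 3 of 81 and ERF genes 1 of 22, with NAC3, also named ANAC055, the strongest of these at folds of 5.87 and 7.31. SPL genes had 1 of 14, SPL7. Expansin genes had 0 of 29, ribosomal protein genes 0 of 19, bHLH symbols 0 of 4 and IAA symbols 0 of 24. PAP2, which the gene table also names IAA27 and which the symbol rule therefore missed, had 2 such peaks.

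Cytochrome P450 genes had 12 of 219 members (5.48%), with SEP3wt folds of 2.63 to 4.90. CYP94B3 and CYP94C1, which break down the active jasmonate, had folds of 4.90 and 3.00 in SEP3wt and 4.95 and 4.71 in SEP3tet. CYP707A2, of abscisic acid breakdown, had 3.61 and 2.59, and CYP711A1, which acts in strigolactone synthesis, had 3.05 and 5.77. CYP86A8, also named LACERATA, of cutin synthesis, had 3.43 and 2.59 at 62 bp.

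No gene was nearest to 3 or more of these peaks, and 22 genes were nearest to 2. Those with a symbol were BCAT-1, JAG, MEE3, ABS2, PIP1B, FER, MYC4, PAP2, NPH3 and IDD1. IDD1, a zinc finger gene, had a strong pair, with folds of 7.07 and 5.66 in SEP3wt and 8.47 and 8.18 in SEP3tet, at 19 and 507 bp (AT5G66730; chromosome 5, 26641296 to 26641779 and 26645083 to 26645390). FER, which encodes the FERONIA receptor kinase, had SEP3wt folds of 3.05 and 5.22 in gaps on its different sides, and MYC4, a jasmonate response factor gene, 3.70 and 4.08.

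PIP1B stood in a run of peaks. Its strong peak was followed by another 13 bp from the gene and 100 bp from CYP86A8 on the other side (chromosome 2, 18911712 to 18912204; folds of 5.71 and 6.01), and then by the CYP86A8 peak (chromosome 2, 18914704 to 18914912). Of the 732 SEP3tet peaks, 14 overlapped more than 1 SEP3wt peak, and in 5 of these both SEP3wt peaks were shared peaks next to genes, at AT1G15370, AT2G44120, AT3G06760, AT4G19400 and AT5G05190. In 1 place, at AT3G04470, the SEP3wt peak covered 2 SEP3tet peaks.

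Another SEP3wt summit lay within 1 kb of 69 of the 737 (9.36%), beside 17.2% over all SEP3wt peaks, 24.1% of the 626 in gene bodies and 9.09% of the 352 over 1 kb from genes. Within 3 kb the numbers were 25.1%, 34.5%, 37.9% and 31.2%, in the same order. Of the SEP3tet peaks at these regions, 99 of 732 (13.5%) had another SEP3tet summit within 1 kb, beside 18.6% of all SEP3tet peaks. A SEP3tet-only summit lay within 1 kb of 61 (8.28%), beside 5.91% of those in gene bodies, 6.82% of those over 1 kb from genes and 6.88% over all SEP3wt peaks. Within 3 kb the numbers were 16.6%, 16.5%, 21.6% and 17.5%, in the same order. These contrasts carry no test.

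Summits of both lists mostly lay close together. The median distance was 22 bp (interval 20 to 25), and 54.4% lay at most 25 bp apart, 79.0% at most 50 bp and 92.4% (90.2 to 94.2) at most 100 bp. For shared narrow peaks in gene bodies 76.8% (73.3 to 80.1) lay at most 100 bp apart, and for those over 1 kb from genes 94.9% (92.0 to 96.9). Among the 184 peaks with the highest SEP3wt folds the median was 13 bp, and among the 184 with the lowest 39 bp. Overlap itself bounds how far summits can lie apart, so these values describe the peaks and are not a test.

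**Figure D4:**
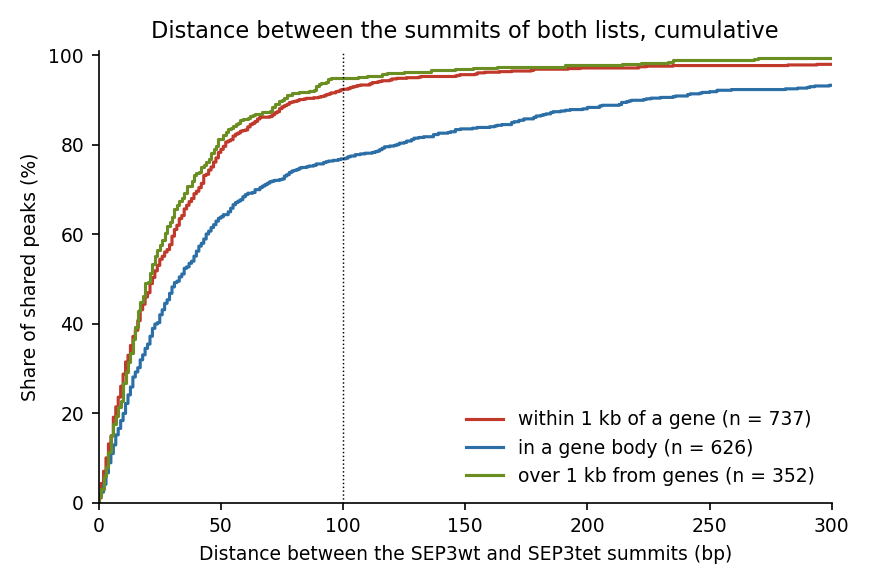
Cumulative share of shared peaks up to 1000 bp wide (vertical axis, %) by distance between their SEP3wt and SEP3tet summits (horizontal axis, bp, shown to 300), for summits within 1 kb of a gene, in gene bodies and over 1 kb from genes. At 100 bp (dotted) the curves stand at 92.4%, 76.8% and 94.9%.

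Only 6 of the 737 had summits over 500 bp apart, at SEP3, SAUR15, AT2G44120, AT1G15370, TCH3 and PIP3, and their SEP3tet peaks were 843 to 2810 bp wide. The SEP3tet fold at these 6 is that of the distant summit. Across the 737 the median width was 247 bp in SEP3wt and 365 bp in SEP3tet. Shared narrow peaks in gene bodies had medians of 266 and 375.5 bp, and those over 1 kb from genes 256.5 and 356 bp. The SEP3tet peak was the wider one at 616 of the 737 (83.6%), and at 491 (66.6%) the SEP3wt peak lay wholly inside it. The rule limits the width of the SEP3wt peak only, so these shares are a description. Both summits had the same nearest gene at 724 (98.2%). The SEP3tet summit lay within 1 kb of a gene at 714, in a gene body at 17 and farther than 1 kb at 6.

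Within the 1-kb limit the peaks were spread over distances roughly as the genome bases around genes are, which was not tested. Without strand, starts and ends of genes are pooled here, so a preferred distance from either alone could go unseen. The median distance of the SEP3wt summit from the nearest edge was 339 bp (quartiles 159 and 631). Of the 737, 333 (45.2%, 41.5 to 48.9) lay within 300 bp, beside 44.3% of the genome bases that lie outside genes but within 1 kb of one. Per megabase of such bases there were 30.3 peaks. The density was 27.0 in the first 100 bp, 33.2 and 34.0 in the next 2 bins of 100 bp, and between 26.3 and 36.9 in the others. Fold hardly changed with distance. The Spearman rho over the 737 peaks was 0.04 for the SEP3wt fold and 0.01 for the SEP3tet fold. The median SEP3wt fold lay between 3.46 and 3.65 in each of 5 bins of 200 bp.

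**Figure D5:**
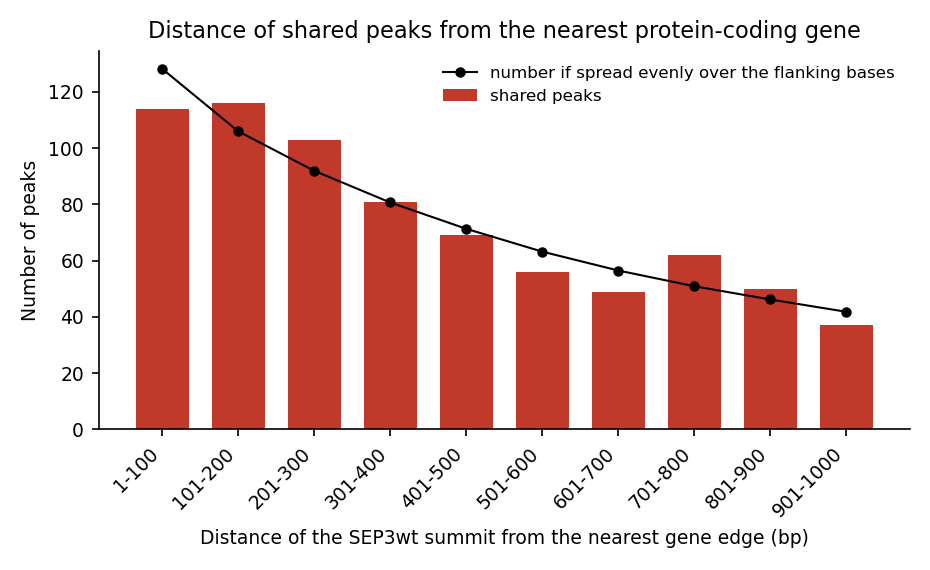
Number of the 737 shared peaks (bars) by distance of the SEP3wt summit from the nearest edge of a protein-coding gene in bins of 100 bp, and the number an even spread over the genome bases at the same distances would give (line). The bars roughly follow the line, with 114 peaks in the first bin, below it, and 62 between 701 and 800 bp, above it.

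The gaps in which these peaks lay were of ordinary length for flanking bases. The gap between the genes on either side had a median of 2174 bp (quartiles 1236 and 3502), and the median over all flanking bases was 2157 bp. Genes lay within 1 kb on both sides of 221 summits (30.0%), beside 29.8% of flanking bases. For these peaks the nearest gene is a choice between neighbours. Chromosomes 1 to 5 held 26.2%, 16.1%, 17.5%, 15.6% and 24.6% of the peaks, beside 26.1%, 15.7%, 19.9%, 15.2% and 23.1% of protein-coding genes.

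Some summits that were outside protein-coding genes lay in other genes. This held for 42 of the 737 (5.70%, 4.14 to 7.63), beside 6.66% of flanking bases, and 24 of the 42 were in genes for long non-coding RNAs. A smaller group lay in genes for the spliceosomal RNAs U1 and U2. Over the whole lists, 10 of 2225 SEP3wt summits and 11 of 3601 SEP3tet summits lay in snRNA genes. The 7 such summits among the 737 made up 0.95% of the peaks, while snRNA genes made up 0.0326% of the flanking bases, 7.92 kb in all. They lay in U1.4, U1.5, U2.3, U2.4, U2.5, U2.7 and U2.10, and at all 7 the SEP3tet summit lay in the same gene.

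Of these, U1.5 had folds of 5.31 in SEP3wt and 3.86 in SEP3tet (chromosome 1, 2537899 to 2538306), 238 bp from AT1G08110. U2.4 had 4.63 and 4.08 (chromosome 3, 21041781 to 21041991), U2.5 had 4.14 and 5.05 (chromosome 5, 2975078 to 2975294) and U2.3 had 3.50 and 5.34. U1.4, U2.10 and U2.7 had SEP3wt folds of 3.21, 2.83 and 2.69. U1 and U2 genes exist in many near-identical copies, 13 and 23 of the 82 snRNA genes of the table by symbol, so reads may be placed on the wrong copy. The signal of the mock samples at these genes was not analysed here. This group was chosen after its values were seen.

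The limits of the rule passed through like peaks. Just inside 1000 bp from a gene were the peaks at MEE3, a RADIALIS-like MYB gene (1000 bp; folds of 5.98 in SEP3wt and 7.41 in SEP3tet), and WRKY22 (995 bp; 3.21 and 4.04). Just outside were those at LARP1c (1009 bp; 2.83 and 4.47) and KUP11 (1011 bp; 4.12 and 6.16). The widest SEP3wt peaks kept were JAZ10 at 979 bp and TCP3 at 958 bp. The narrowest left out for width were those at AT1G09250 (1040 bp; folds of 7.83 and 8.52) and FER1 (1079 bp; 3.34 and 2.54).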

How the data were processed

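Either line had 1 deposited narrowPeak list, which the labels of its ChIP samples name. The submitters' processing notes name Trimmomatic 0.36, Bowtie2 2.2.5, MACS2 2.2.7.1, deepTools and the TAIR10 build. The sources used here do not say how replicates were combined or which control was used. Fold is the authors' ratio, the enrichment over background at the summit, and the −log10 q and −log10 p are those of the authors' peak caller, both read from the narrowPeak layout. The deposited score is the −log10 q multiplied by 10 with its decimals dropped, and neither it nor the −log10 p was used. Every fold and q serves only to describe, rank or filter peaks within a list.

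Genes came from a RefSeq table of assembly TAIR10.1 (27444 protein-coding genes on 5 chromosomes, no strand), used for names and neighbours, and no coordinate of it is printed. SEP3wt summits lay in gene bodies in 45.3% of cases, and in 60.9% and 61.7% when shifted by 5 kb either way. Positions printed count from 1. Where several SEP3tet peaks overlapped, the one with the highest fold was read. Overlaps and distances were computed with Python 3.11.15, numpy 2.4.6 and pandas 2.3.3 and tested on simulated data. Intervals are exact (Clopper-Pearson for shares, order statistics for medians; scipy 1.17.1) at 95% and cover counting error only. With 1 list per line no test was made.

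The members, the lists of genes, the 16 symbol families with genes in the table and the alternatives were chosen with earlier results of these data known. Named are the 12 peaks with the highest fold in each list whose nearest gene has a symbol, listed genes, peaks at the limits of the rule, the 4 lowest, the 3 with summits farthest apart, and others as stated, chosen after their values were seen. The count of 1 symbol family is not reported here. Sequences and motifs under the peaks were not analysed here.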

Additional observations from a re-analysis of the deposited data

How the results depend on the processing

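Over 63 recomputed values of the main results, 53 stayed within 1.5 times (counts) or within the interval of the median, and 10 did not. A −log10 q of at least 10 in both lists left 213 peaks, with summits a median of 13 bp apart, and 7 listed genes. Median folds were then 5.22 in SEP3wt and 6.60 in SEP3tet. The rule as given had 737 peaks and 19 listed genes, of which 17 were on the 6 floral, flowering and hormone lists. The other 2 were root regulators of the comparison lists, and no comparison gene was among the 7. A limit of 500 bp from the gene left 483 peaks, a median distance of 213 bp and 10 listed genes, and a limit of 2000 bp gave a median distance of 492 bp, as the limits themselves impose. A reciprocal overlap of 0.5 gave a median SEP3wt fold of 3.73. Other width limits, the peak midpoint or the SEP3tet summit in place of the SEP3wt summit, and all genes of the table gave 671 to 757 peaks. Of 88 values for single lists of genes 17 moved, where every list had a count of 5 or fewer under the rule as given. The share of summits on the 5′ side of genes and the CArG box counts were planned and not run, since no strand or sequence was used here. No paired analysis was possible because each line has 1 peak list for both of its replicates, and for the same reason no replicate was left out. Depth is unknown, so weak peaks in either list cannot be weighed.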
